A study of Mus musculus with 32 samples.

Results

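The genes described are the collagen chains, in mouse livers from a study that crossed the diet (normal or Western) with the food additive E171. The members are the non-control array probes whose gene name in the files has the form Col, a number, the letter a and a number. This gave 91 of 56605 probes, for 44 collagen genes. Of these, 51 probes for 34 genes were bright enough to test, out of 35777 probes for 23644 genes over the whole array. Agilent one-colour arrays measured the liver RNA of 32 mice, male F1 animals of the C57BL/6J strain, with 1 array for each mouse and 8 mice in each group. E171 is food-grade titanium dioxide, given in pellets at a daily target dose of 10 mg per kg of body weight. The 4 groups were control mice on the normal diet, E171 mice on the normal diet, control mice on the Western diet and E171 mice on the Western diet. The mothers of the E171 mice had received E171 for 40 days before mating, the pups stayed on the treatment of the mother, and the mothers of the control mice had received pellets without it. Mice of the Western-diet groups changed diet at 5 weeks of age and all mice were sampled at 21 weeks, after 16 weeks on their adult diet. The group labels speak of a Western diet and the protocol of a high fat diet, and neither the composition of the diets nor the litter of each mouse is stated in the labels. Littermates may therefore share a group, and p-values measure the spread between these mice.

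Collagens are secreted proteins in which chains wind around each other into a triple helix, which needs glycine in a regular repeat with a pair of other residues between. Fibrillar collagens (types I, II, III, V, XI, XXIV and XXVII) assemble into the fibrils of connective tissue. Network collagens (types IV, VIII and X) form sheets such as the basement membrane. FACIT collagens (fibril-associated collagens with interrupted triple helices, such as types XII, XIV and XVI) sit on the surface of fibrils. The other collagens include the beaded filaments of type VI, the anchoring fibrils of type VII, chains that span the cell membrane, and type XVIII of basement membranes. In a scarring liver, activated hepatic stellate cells and portal fibroblasts are known as the main sources of type I and type III collagen, and hepatocytes as a source of type XVIII. By these classes the array held 11 fibrillar, 9 network, 9 FACIT and 15 other genes, of which 10, 7, 6 and 11 were tested.

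The repeat that defines the family can be read in some of the probes themselves. Of the 91 collagen probes, 7 (7.69%) hold at least 4 glycine codons in a row with a pair of other codons between them, against 39 (0.069%) of the 56514 other probes. They are shown because the repeat of the triple helix can be read in them. Positions are those of the array files (mm9), spans longer than the probe's 60 bases are as the files give them, and capitals mark the glycine codons in register.
Col11a2 (chr17:34189287-34189453, plus strand): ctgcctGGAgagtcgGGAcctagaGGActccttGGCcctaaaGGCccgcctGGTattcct
Col14a1 (chr15:55347733-55347792, plus strand): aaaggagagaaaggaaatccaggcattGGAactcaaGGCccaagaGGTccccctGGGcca
Col15a1 (chr4:47283786-47283845, plus strand): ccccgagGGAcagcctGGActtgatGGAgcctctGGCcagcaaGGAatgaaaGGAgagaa
Col16a1 (chr4:129756457-129756516, plus strand): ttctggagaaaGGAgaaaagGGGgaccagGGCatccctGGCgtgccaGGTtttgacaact
Col22a1 (chr15:71767749-71768433, minus strand): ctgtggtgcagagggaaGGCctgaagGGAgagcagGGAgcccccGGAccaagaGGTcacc
Col5a3 (chr9:20590066-20590795, minus strand): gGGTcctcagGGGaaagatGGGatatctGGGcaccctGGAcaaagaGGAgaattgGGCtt
Col6a3 (chr1:92689602-92690594, minus strand): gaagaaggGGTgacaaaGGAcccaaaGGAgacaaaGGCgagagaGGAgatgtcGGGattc
The probes of Col11a2, Col14a1 and Col15a1 stand for their gene below, the probe of Col16a1 was too dim to test, and those of Col22a1, Col5a3 and Col6a3 are additional probes of their gene.

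RefSeq start sites (GRCm38.p6) were matched for 35 of the 44 genes, with 38 entries. Col4a1 and Col4a2 start 21 bases apart on opposite strands. Col4a5 and Col4a6 start 1343 bases apart, also on opposite strands. Below are the 250 bases before the start of a pair of fibrillar genes that were higher together on the Western diet, with CCAAT boxes, GGGCGG (GC boxes) and TATAAA (the TATA box) in capitals where they occur on either strand.
Col1a2 (chr6:4505368-4505617, GRCm38.p6, plus strand): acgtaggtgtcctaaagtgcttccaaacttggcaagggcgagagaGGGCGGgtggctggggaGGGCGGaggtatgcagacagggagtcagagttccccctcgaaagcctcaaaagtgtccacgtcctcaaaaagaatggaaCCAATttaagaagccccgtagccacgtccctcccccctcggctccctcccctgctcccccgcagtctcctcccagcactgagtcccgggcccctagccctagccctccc
Col3a1 (chr1:45311288-45311537, GRCm38.p6, plus strand): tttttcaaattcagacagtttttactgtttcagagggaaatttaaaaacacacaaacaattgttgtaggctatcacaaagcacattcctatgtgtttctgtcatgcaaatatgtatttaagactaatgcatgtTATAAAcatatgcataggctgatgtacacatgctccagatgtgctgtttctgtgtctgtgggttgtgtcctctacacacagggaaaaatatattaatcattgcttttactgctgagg
Col1a2 has CCAAT 109 bases before its start and GGGCGG 205 and 188 bases before it, while the only match for Col3a1 is TATAAA 117 bases before its start. In windows of the same length, CCAAT or its reverse complement was found in 34.2% of collagen entries and 33.8% of all 32851 RefSeq entries, TATAAA in 13.2% and 12.4%, and GGGCGG in 57.9% and 32.7%. Of the 17 collagen genes higher on the Western diet in both comparisons below, only 12 had a start-site entry. Among their entries 9 of 13 (69.2%) held GGGCGG, 38.5% held CCAAT and 7.69% TATAAA. Of the 6 entries of genes lower in both, 3 held GGGCGG, 2 held CCAAT and 1 held TATAAA. These are matches of letters, not measured binding sites.

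All values below are log2 of the array signal relative to the 75th percentile of the array, so a difference of 1 is a doubling. The 75th percentile itself ran from 249 to 489 intensity units, with group means of 367 and 356 on the normal diet (control and E171) and 430 and 403 on the Western diet. Between 32164 and 37261 probes per array were well above background, among them 41 to 60 of the 91 collagen probes, and no spot was saturated. Arrays of a group correlated at 0.981 to 0.996, and no arrays were identical. The arrays came from 4 slides, and every slide carried 2 mice from each group. The defining markers of hepatocytes, the labelled tissue's main cell, were all above background, and none of the 10 listed was at 0. A gene is said to be higher or lower when its adjusted p in limma's moderated test is under 0.05, after Benjamini-Hochberg adjustment over all 23644 genes.

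Control livers on the Western diet had more mRNA of Col1a1, Col1a2 and Col3a1, of Col5a1 and Col5a2, of Col6a1, Col6a2 and Col6a3 and of the type IV chains Col4a1, Col4a2 and Col4a5, and less of 5 chains, among them Col20a1, Col27a1 and Col18a1. In whole liver, more cells of a type and more RNA per cell cannot be told apart. Of the 34 tested collagen genes, 18 were higher (52.9%, against 18.7% of all genes) and 5 lower (14.7%, against 28.5% of all genes). Among the higher ones, Col4a6 and Col23a1 passed the background filter only through the Western-diet groups, where their signal is high. Their calls therefore add no support to the count of 18. The same holds for Col4a6 in the counts of at least 2-fold higher genes below. In E171 mice it also holds for Col4a6 in the counts of higher genes and of those without overlap. The median difference of the 34 was 0.77, that of all genes -0.10. At least 2-fold higher were 13 collagen genes, against 5.48% of all genes. For 8 genes every mouse on the Western diet lay above every mouse on the normal diet (background 4.62%), and for 3 every mouse lay below (background 5.48%). In the E171 mice 19 were higher (55.9%, against 21.9% of all genes) and 5 lower (14.7%, against 32%), with a median of 0.84 against -0.11 for all genes. There, too, 13 were at least 2-fold higher (background 6.56%), 14 were higher without overlap (background 8.93%) and 3 lower without overlap (background 9.39%). The 2 diet comparisons use separate mice but share 1 estimate of the spread per gene, taken from all 4 groups, so they are not fully independent tests. In both, 17 genes were higher and 5 lower, 9 were called in neither, Col23a1 was called in the control mice only, and Col4a4 and Col6a5 in the E171 mice only; a test of the difference between both comparisons, the interaction given below, passed for none of them. The share of all calls that were higher was 39.6% in control mice and 40.7% in E171 mice, but 54.4% and 51.1% with the deposited value table and 29.5% in control mice with normexp background correction. The direction held on all 4 slides for 22 of the 23 genes called in control mice and 23 of the 24 called in E171 mice, the exceptions being Col4a6 and Col4a4.

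Markers of other cells moved with the diet too. Their counts stand against 18.7% (control) and 21.9% (E171) of all genes higher, and 28.5% and 32% lower. The activated fibroblast list had 7 of 8 markers higher and 0 lower in control and in E171 mice, and its summed signal, in multiples of the array's 75th percentile, ran from 11.7 to 14.9 in normal-diet controls, 11.1 to 14.7 in normal-diet E171 mice, 17.2 to 27.2 in Western-diet controls and 16.4 to 23.1 in Western-diet E171 mice. The portal fibroblast and mesothelium list had 5 of 8 higher and 0 lower in each, with sums of 11.0 to 16.9, 10.09 to 16.1, 16.0 to 38.5 and 19.4 to 36.9 in the same order of groups. Stellate cell markers were higher in 5 of 10 cases in control and 6 in E171 mice and lower in 1 in each, with overlapping sums of 47.9 to 68.3, 60.1 to 69.4, 45.9 to 62.1 and 56.8 to 66.6. All listed markers were tested and none was at 0. Their part in the collagen differences was not tested.

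Among fibrillar chains, 6 of 10 tested genes were higher and 1 lower in each diet comparison, with class medians of 1.15 in control and 1.19 in E171 mice. Class counts, here and below, stand against 18.7% (control) and 21.9% (E171) of all genes higher, and 28.5% and 32% lower. Col1a1 encodes the chain that makes up most of type I collagen, the main protein of scar tissue (probe chr11:94813075-94813134, mm9, plus strand). Its values ran from -1.15 to 0.43 (median -0.54) in normal-diet controls, -1.56 to -0.23 (median -0.53) in normal-diet E171 mice, 1.07 to 3.68 (median 2.68) in Western-diet controls and 1.83 to 3.35 (median 2.84) in Western-diet E171 mice. Every Western-diet mouse lay above every normal-diet mouse, while the E171 and control mice of each diet overlapped. The diet difference was 3.03 (SE 0.31, adjusted p = 5.6e-09) in control mice, or 8.16-fold, and 3.36 (SE 0.31, adjusted p = 5.94e-10) in E171 mice, or 10.2-fold. Within single slides it ran from 1.79 to 4.24 in controls and 2.93 to 3.88 in E171 mice.

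Col1a2, the partner chain of type I collagen, spanned 1.26 to 2.41 (median 1.72) and 1.17 to 2.17 (median 1.87) on the normal diet (control and E171), and 2.68 to 4.90 (median 4.09) and 3.41 to 4.62 (median 4.24) on the Western diet. The diets did not overlap, with differences of 2.16 (SE 0.25, adjusted p = 4.02e-08) in control and 2.38 (SE 0.25, adjusted p = 4.72e-09) in E171 mice. Col3a1, the type III chain that forms the thin fibrils of the liver's reticulin, gave 1.16 to 2.49 (median 1.59) and 1.03 to 1.87 (median 1.63) on the normal diet against 2.82 to 4.92 (median 4.03) and 3.24 to 4.48 (median 3.997) on the Western diet. Here again no Western-diet mouse fell within the normal-diet range, and the diet differences were 2.24 (SE 0.24, adjusted p = 1.43e-08) in control and 2.37 (SE 0.24, adjusted p = 3.61e-09) in E171 mice. Col2a1, known as the main collagen of cartilage, lay at -4.98 to -3.55 (median -4.61) and -6.14 to -4.29 (median -4.46) on the normal diet and at -3.47 to -1.15 (median -2.07) and -2.90 to -1.39 (median -2.03) on the Western diet, where it was higher without overlap by 2.24 (SE 0.29, adjusted p = 3.6e-07) in control and 2.59 (SE 0.29, adjusted p = 2.4e-08) in E171 mice. On 31 of 32 arrays its signal stood well above background. With normexp background correction the differences of Col2a1 were 0.86 in control and 0.91 in E171 mice, and still passed.

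The type V chains, which are buried in type I fibrils and set their width, were higher for Col5a1 and Col5a2. Col5a1 ran from -0.20 to 0.38 (median 0.05) and -0.32 to 0.19 (median 0.07) on the normal diet to 0.29 to 1.61 (median 1.34) and 0.79 to 1.58 (median 1.18) on the Western diet. One or more Western-diet controls lay within the range of the normal-diet controls, while the E171 groups did not overlap. Differences were 1.09 (SE 0.15, adjusted p = 7.07e-07) in control and 1.16 (SE 0.15, adjusted p = 1.9e-07) in E171 mice. Col5a2, a dim probe that was well above background on 5 of 8 and 7 of 8 normal-diet arrays (control and E171), spanned -5.79 to -4.60 (median -5.33), -5.54 to -4.88 (median -5.38), -5.01 to -2.92 (median -4.05) and -4.75 to -3.52 (median -3.98) in the 4 groups in the same order as above. It was higher by 1.21 (SE 0.23, adjusted p = 6.92e-05) in control and 1.21 (SE 0.23, adjusted p = 5.33e-05) in E171 mice, but with normexp background correction neither call held, at 0.13 (adjusted p = 0.138) in control and 0.18 (adjusted p = 0.0551) in E171 mice. Col5a3, the remaining type V chain, did not pass, at -0.15 (SE 0.13, adjusted p = 0.354) in control and -0.12 (SE 0.13, adjusted p = 0.432) in E171 mice. Nor did the type XI chains Col11a1 (0.01 and 0.03) and Col11a2 (-0.28 and -0.21), which are known from cartilage fibrils.

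**Figure D1:**
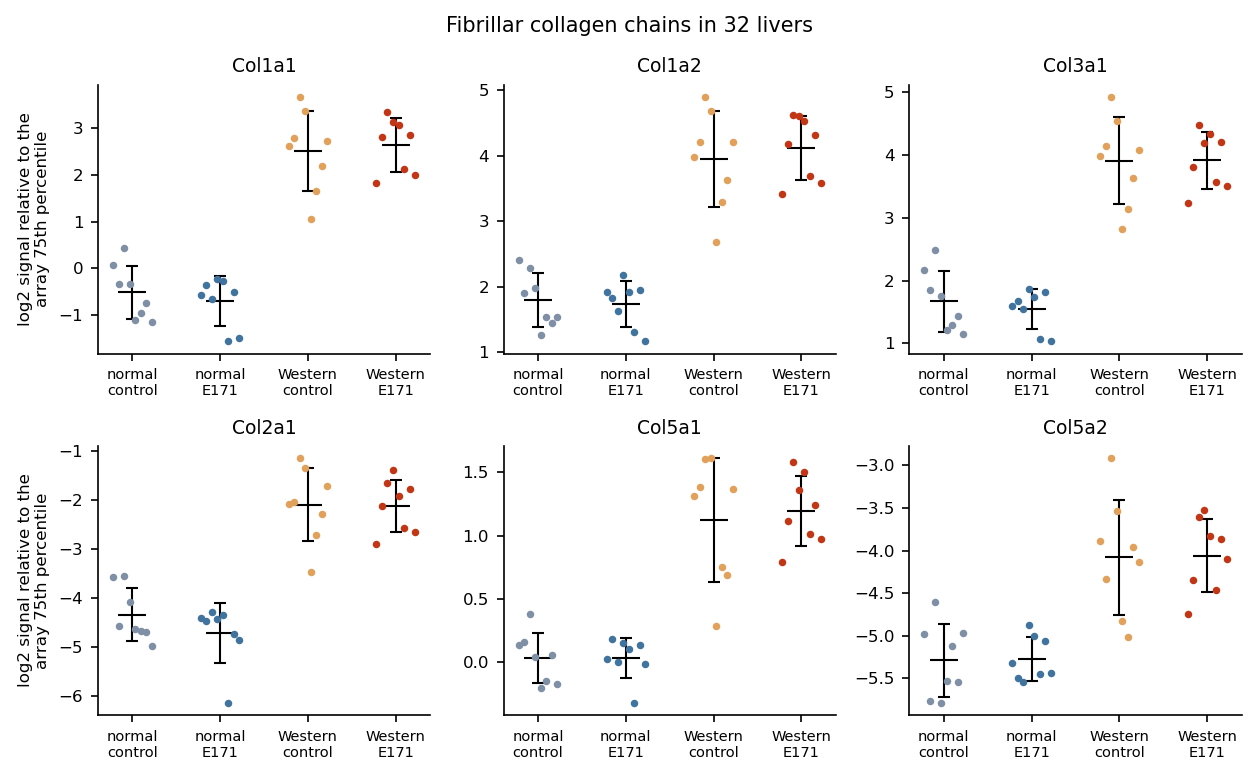
Signal of 6 fibrillar collagen genes (vertical axis, log2 relative to the 75th percentile of the array) in the 4 groups, 1 point per mouse, with the mean and SD of the 8 mice as a bar. For Col1a1, Col1a2, Col3a1 and Col2a1 the Western-diet mice lie above all normal-diet mice; in Col1a1 the highest normal-diet mouse is at 0.43 and the lowest Western-diet mouse at 1.07.

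Network chains were higher in 5 of 7 cases in control mice and 6 of 7 in E171 mice, and lower in none, with medians of 0.91 and 0.82. Col4a1 and Col4a2 form the common type IV trimer of basement membranes, including the matrix along the sinusoids. Col4a1 ran from 0.36 to 0.94 (median 0.68) and 0.27 to 0.99 (median 0.67) on the normal diet to 1.03 to 2.33 (median 1.87) and 0.85 to 2.16 (median 1.51) on the Western diet. The control groups were separate and the E171 groups overlapped. Its differences were 1.08 (SE 0.17, adjusted p = 6.01e-06) in control and 0.82 (SE 0.17, adjusted p = 0.00017) in E171 mice, and those of Col4a2 were 0.91 (SE 0.16, adjusted p = 2.99e-05) in control and 0.79 (SE 0.16, adjusted p = 0.000138) in E171 mice. The rarer type IV chains Col4a5 and Col4a6 form another trimer, and their genes lie side by side on the X chromosome. Col4a5 was higher by 0.79 (SE 0.23, adjusted p = 0.00666) in control and 0.93 (SE 0.23, adjusted p = 0.0014) in E171 mice, and by 0.34 and 0.40 with normexp background correction.

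Col4a6 gave -6.77 to -4.36 (median -5.90) and -7.62 to -5.66 (median -6.10) on the normal diet and -6.28 to -2.47 (median -4.34) and -5.56 to -2.91 (median -4.43) on the Western diet, where Western-diet controls were spread the widest. The control groups overlapped and the E171 groups did not. It was higher by 1.36 (SE 0.43, adjusted p = 0.0094) in control and 2.06 (SE 0.43, adjusted p = 0.000173) in E171 mice, and its signal stood well above background on 4, 1, 7 and 7 of 8 arrays (normal-diet control and E171, Western-diet control and E171). In control mice its call was lost without slide 2 (adjusted p = 0.0779), without slide 3 (adjusted p = 0.225) and with normexp background correction (0.18, adjusted p = 0.169). In E171 mice Col4a6 passed at 0.27 with that correction and at 0.81 with the deposited table. Col8a1, a short-chain collagen of vessel walls, ran from -2.94 to -1.36 (median -1.81) and -2.75 to -1.47 (median -1.94) to -1.86 to 0.46 (median -0.57) and -1.25 to 0.22 (median -0.47), with overlap in control mice only. The differences were 1.39 (SE 0.28, adjusted p = 0.000166) in control and 1.49 (SE 0.28, adjusted p = 5.72e-05) in E171 mice. Its partner chain Col8a2 did not pass, at -0.30 and 0.07. Col4a4, a chain of the kidney filter, was 0.50 (SE 0.29, adjusted p = 0.151) in control mice and 0.67 (SE 0.29, adjusted p = 0.0487) in E171 mice, and the latter call was lost under many of the alternatives, among them leaving out single mice.

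FACIT chains were higher in 3 of 6 cases and lower in 1 in each comparison, with medians of 0.38 and 0.43. Col12a1, which decorates type I fibrils in tissue under tension, lay at -5.76 to -3.64 (median -4.48) and -5.98 to -3.76 (median -5.46) on the normal diet and at -3.18 to -2.32 (median -2.70) and -3.34 to -2.50 (median -2.70) on the Western diet. The Western-diet mice stood closely together and above all normal-diet mice. The difference was 1.84 (SE 0.28, adjusted p = 3.16e-06) in control and 2.42 (SE 0.28, adjusted p = 2.77e-08) in E171 mice. On the normal diet its probe was well above background on 6 of 8 control and 4 of 8 E171 arrays. The differences of Col12a1 still passed but were 0.52 and 0.64 (control and E171) with normexp background correction and 1.14 and 1.39 with the deposited table. Its other probe gave 0.99 in control mice, and 0.31 in E171 mice, which did not pass (adjusted p = 0.385 in limma over all probes). That probe was well above background on 1, 2, 6 and 2 of 8 arrays (normal-diet control and E171, Western-diet control and E171). It was kept only through the Western-diet controls, where it is high. Col14a1, whose probe is shown above, was higher by 0.76 (SE 0.15, adjusted p = 0.000127) in control and 0.86 (SE 0.15, adjusted p = 1.87e-05) in E171 mice, and Col16a1 by 0.88 (SE 0.13, adjusted p = 3.64e-06) in control and 0.96 (SE 0.13, adjusted p = 7.28e-07) in E171 mice. Col9a2, a cartilage chain, and Col22a1, a chain of tissue junctions, did not pass, at -0.13 and 0.01 in control and -0.16 and -0.01 in E171 mice.

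Among the other collagens, 4 of 11 were higher and 3 lower in each comparison. The share that was lower is near that of all genes, 28.5% in control and 32% in E171 mice. The higher chains were mainly those of type VI, which forms beaded filaments around cells and links them to the surrounding fibrils. Col6a1 ran from 0.36 to 1.39 (median 0.78) and 0.42 to 1.19 (median 0.94) on the normal diet to 1.504 to 2.82 (median 2.08) and 1.76 to 2.62 (median 2.26) on the Western diet, with no overlap between diets. Its differences were 1.32 (SE 0.17, adjusted p = 3.76e-07) in control and 1.34 (SE 0.17, adjusted p = 2.16e-07) in E171 mice. Col6a2, which lies on the same chromosome and strand as Col6a1, gave -2.97 to -1.64 (median -2.37), -2.87 to -2.07 (median -2.31), -1.70 to -0.22 (median -0.99) and -1.48 to -0.37 (median -1.08) in the same order of groups. Only its control groups overlapped, and it was higher by 1.37 (SE 0.20, adjusted p = 1.72e-06) in control and 1.31 (SE 0.20, adjusted p = 2.45e-06) in E171 mice. Col6a3, the chain from which endotrophin is cut, spanned -0.25 to 0.89 (median 0.28) and -0.39 to 0.64 (median 0.39) against 1.36 to 3.18 (median 1.87) and 1.23 to 2.55 (median 1.93). The diets were separate and the differences were 1.68 (SE 0.23, adjusted p = 9.11e-07) in control and 1.58 (SE 0.23, adjusted p = 1.81e-06) in E171 mice.

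Col6a5, a type VI chain that resembles Col6a3, was spread much more widely than these. It lay at -6.50 to -4.42 (median -5.03) and -7.49 to -4.93 (median -6.20) on the normal diet and -6.32 to -2.32 (median -4.21) and -5.24 to -3.14 (median -4.01) on the Western diet, and all groups overlapped. The diet difference was 0.80 (SE 0.42, adjusted p = 0.12) in control and 1.89 (SE 0.42, adjusted p = 0.000448) in E171 mice, and the test of the difference between them did not pass (1.09, SE 0.60, adjusted p = 0.973). Its signal stood well above background on 6, 2, 6 and 7 of 8 arrays (normal-diet control and E171, Western-diet control and E171). The call of Col6a5 in E171 mice was lost with normexp background correction, at 0.21, and it was 0.65 with the deposited table. Col23a1, a chain that spans the cell membrane, was higher in control mice at the margin of the threshold, by 0.76 (SE 0.31, adjusted p = 0.0436), and not called in E171 mice, at 0.59 (SE 0.31, adjusted p = 0.106). Its probe was well above background on 2, 4, 7 and 7 of 8 arrays in the same order of groups. With normexp background correction the sign of Col23a1 turned (-0.10, adjusted p = 0.283), and the call was lost without any 1 slide and without any of 11 single mice. Col15a1 (0.67 and 0.88), Col17a1 (-0.18 and -0.27) and Col26a1 (-0.28 and -0.16) did not pass in either comparison.

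**Figure D2:**
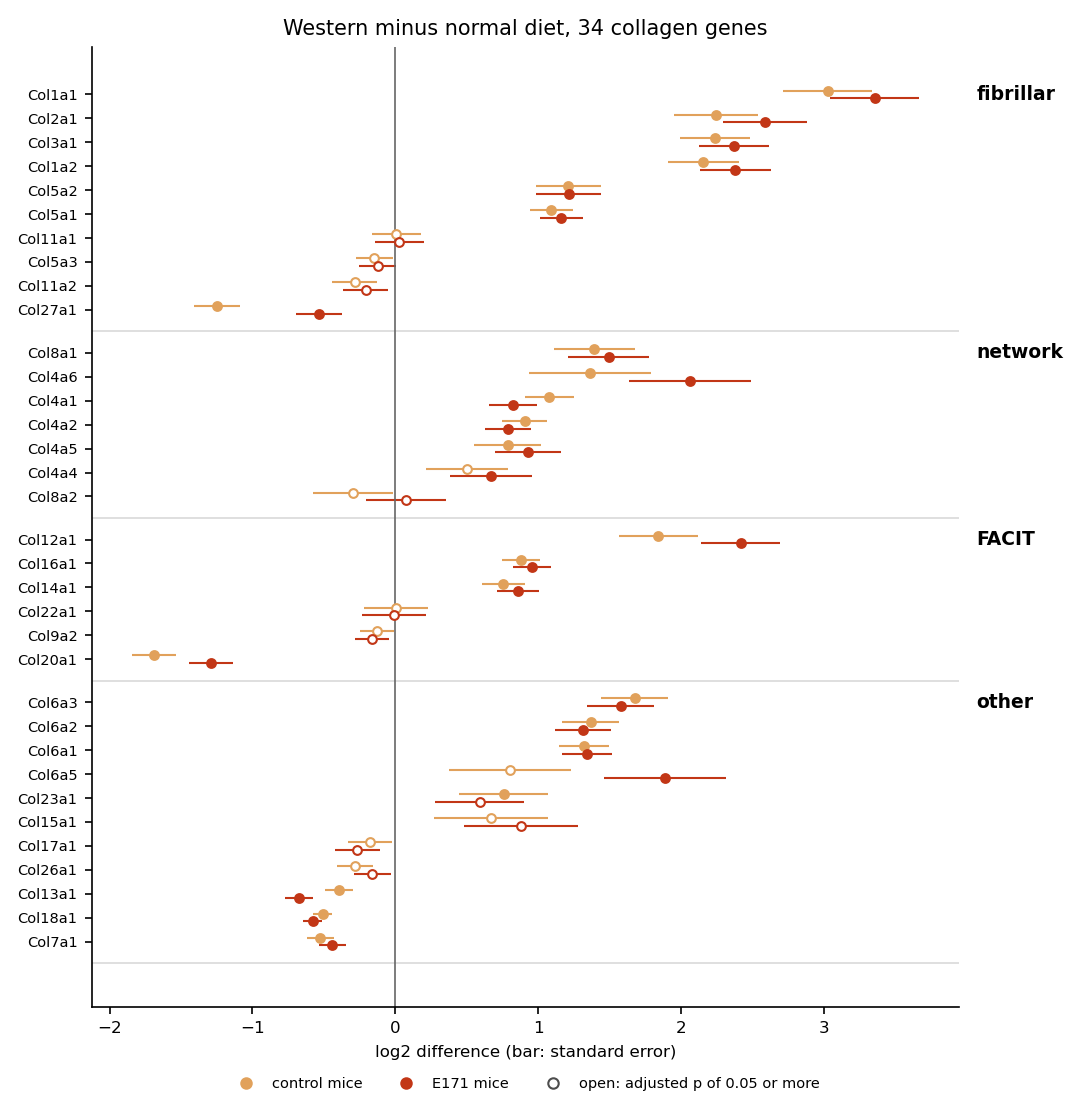
Difference between Western and normal diet (horizontal axis, log2, with its standard error as a bar) of the 34 tested collagen genes by class, in control mice and in E171 mice (8 against 8 mice each). Filled points have an adjusted p under 0.05; Col1a1 stands furthest to the right, at 3.03 and 3.36, and Col20a1 furthest to the left, at -1.69 and -1.29.

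The 5 chains that were lower in both comparisons come from 3 classes. Col20a1, a FACIT chain, ran from -2.34 to -1.47 (median -2.11) and -2.53 to -1.69 (median -2.07) on the normal diet to -4.21 to -2.88 (median -3.66) and -3.80 to -3.01 (median -3.45) on the Western diet. Every Western-diet mouse lay below every normal-diet mouse, and the differences were -1.69 (SE 0.16, adjusted p = 6.79e-10) in control and -1.29 (SE 0.16, adjusted p = 6.47e-08) in E171 mice. Col18a1, whose C-terminal fragment is endostatin, spanned 6.87 to 7.25 (median 6.97) and 6.94 to 7.13 (median 7.04) against 6.18 to 6.64 (median 6.56) and 6.22 to 6.60 (median 6.50), again without overlap. It was lower, at -0.51 (SE 0.07, adjusted p = 3.1e-07) in control and -0.58 (SE 0.07, adjusted p = 2.56e-08) in E171 mice. Col7a1, the anchoring fibril chain, was lower, at -0.52 (SE 0.09, adjusted p = 3.78e-05) in control and -0.44 (SE 0.09, adjusted p = 0.00024) in E171 mice, and Col13a1, which spans the cell membrane, was lower at -0.39 (SE 0.10, adjusted p = 0.00149) in control and -0.68 (SE 0.10, adjusted p = 1.24e-06) in E171 mice. Markers of hepatocytes were lower as well, in 9 of 10 cases in control and 8 of 10 in E171 mice, against 28.5% and 32% of all genes. Their summed signals were 5523 to 6861 in normal-diet controls, 5530 to 7290 in normal-diet E171 mice, 3996 to 5869 in Western-diet controls and 4119 to 5510 in Western-diet E171 mice. In control mice 3 of these markers were lower and 2 higher with quantile normalization, and 3 lower and 1 higher with the deposited table. Their part in the lower collagen values was not tested.

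Col27a1, a fibrillar chain of cartilage and developing tissue, was the 1 fibrillar gene that was lower. On its brighter probe (chr4:62995485-62995544, mm9) it lay at -0.99 to 0.25 (median -0.13) and -0.91 to -0.11 (median -0.23) on the normal diet and at -1.83 to -0.69 (median -1.51) and -1.18 to -0.57 (median -0.91) on the Western diet. The diets overlapped in both comparisons, since the lowest normal-diet mice lay below the highest Western-diet mice. The diet difference was -1.25 (SE 0.16, adjusted p = 2.63e-07) in control and -0.54 (SE 0.16, adjusted p = 0.00612) in E171 mice. A second probe, chr4:62953608-62953667 (mm9), matched to another transcript, gave -4.12 to -0.75 (median -2.29) and -2.81 to -0.39 (median -1.79) on the normal diet and -3.60 to -2.10 (median -2.33) and -2.06 to -0.71 (median -1.60) on the Western diet. It showed no diet call, at -0.18 (adjusted p = 0.726) in control and 0.28 (adjusted p = 0.554) in E171 mice.

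**Figure D3:**
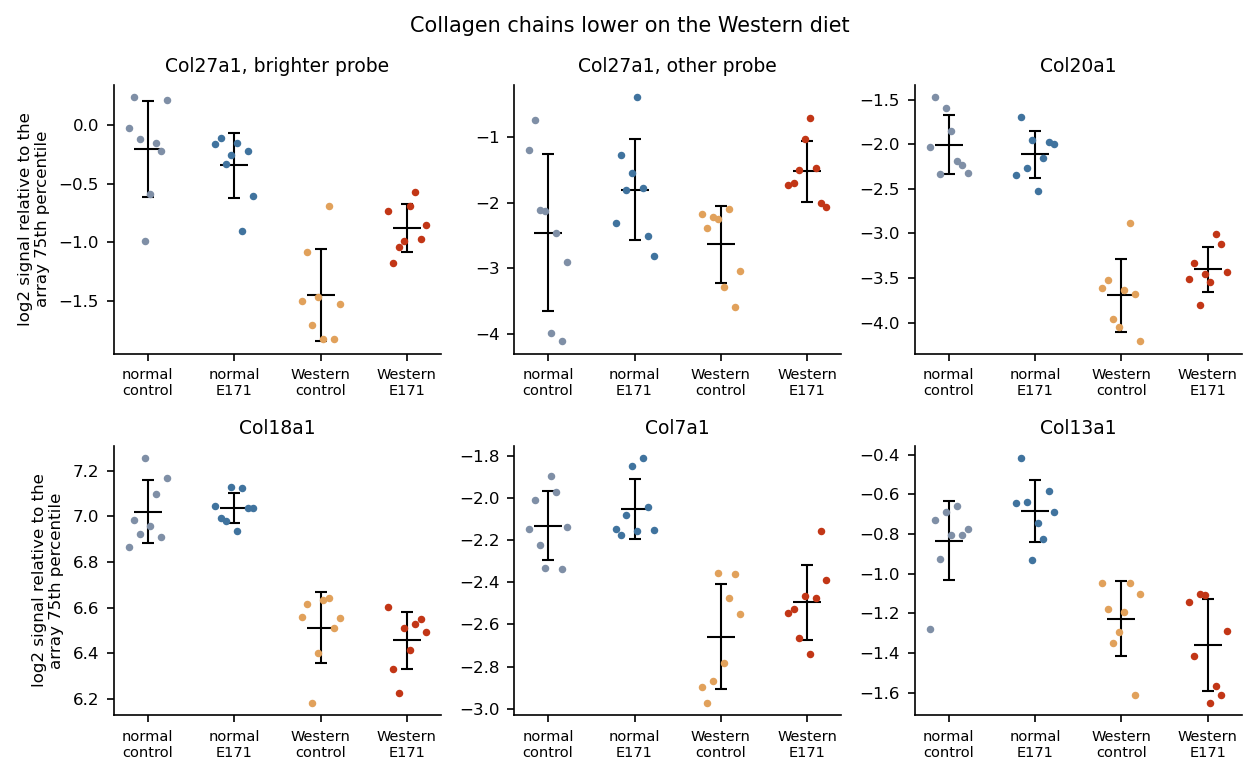
Signal (vertical axis, log2 relative to the 75th percentile of the array) of the 5 collagen genes that were lower on the Western diet, 1 point per mouse with mean and SD of 8 mice. Both probes of Col27a1 are shown: the brighter one differs by -1.25 between diets in control mice, the other by -0.18.

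The remaining 10 genes were too dim to test. Col10a1, Col28a1 and Col6a6 were well above background on 0 of 32 arrays, Col6a4 on 2, Col25a1 and Col9a3 on 3, Col19a1 on 4, Col9a1 on 8, Col24a1 on 9 and Col4a3 on 10, taking the best probe of each. They are mostly chains known from cartilage, brain, skin or kidney. No value is given for them.

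E171 was not followed by a called change in any collagen gene. On the normal diet 0 of 34 passed in limma (background 0%), with 2 at an unadjusted p under 0.05, Col5a3 (-0.27) and Col6a5 (-0.89). The lowest adjusted p there was 0.999, and the differences ran from -0.89 to 0.32 with a median of -0.02. On the Western diet 0 passed (background 0.385%), with 1 at an unadjusted p under 0.05, and the differences ran from -0.28 to 0.57. Averaged over both diets 0 passed (background 0.364%), the 1 with an unadjusted p under 0.05 being Col5a3, at -0.25 (SE 0.09, adjusted p = 0.255). The interaction of E171 and diet was called for 0 (background 0%), with 2 at an unadjusted p under 0.05, Col13a1 (-0.28) and Col27a1. For Col1a1 the E171 difference was -0.19 (SE 0.31) on the normal diet and 0.14 (SE 0.31) on the Western diet. For Col3a1 it was -0.13 (SE 0.24) and 0.01 (SE 0.24). These comparisons share their groups with the diet comparisons.

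Col27a1 came closest to a call for E171. On the Western diet it was higher in the E171 mice by 0.57 (SE 0.16, unadjusted p = 0.00122, adjusted p = 0.0978 in limma), with medians of -1.51 in controls and -0.91 in E171 mice and overlapping groups. Without mouse 6 of the Western-diet controls, the highest of its group, the difference was 0.68 and passed, with an adjusted p of 0.0326. The second probe differed in the same direction by 1.11 (SE 0.38, adjusted p = 0.201 over all probes). The interaction for the brighter probe was 0.71 (SE 0.23, adjusted p = 0.838).

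**Figure D4:**
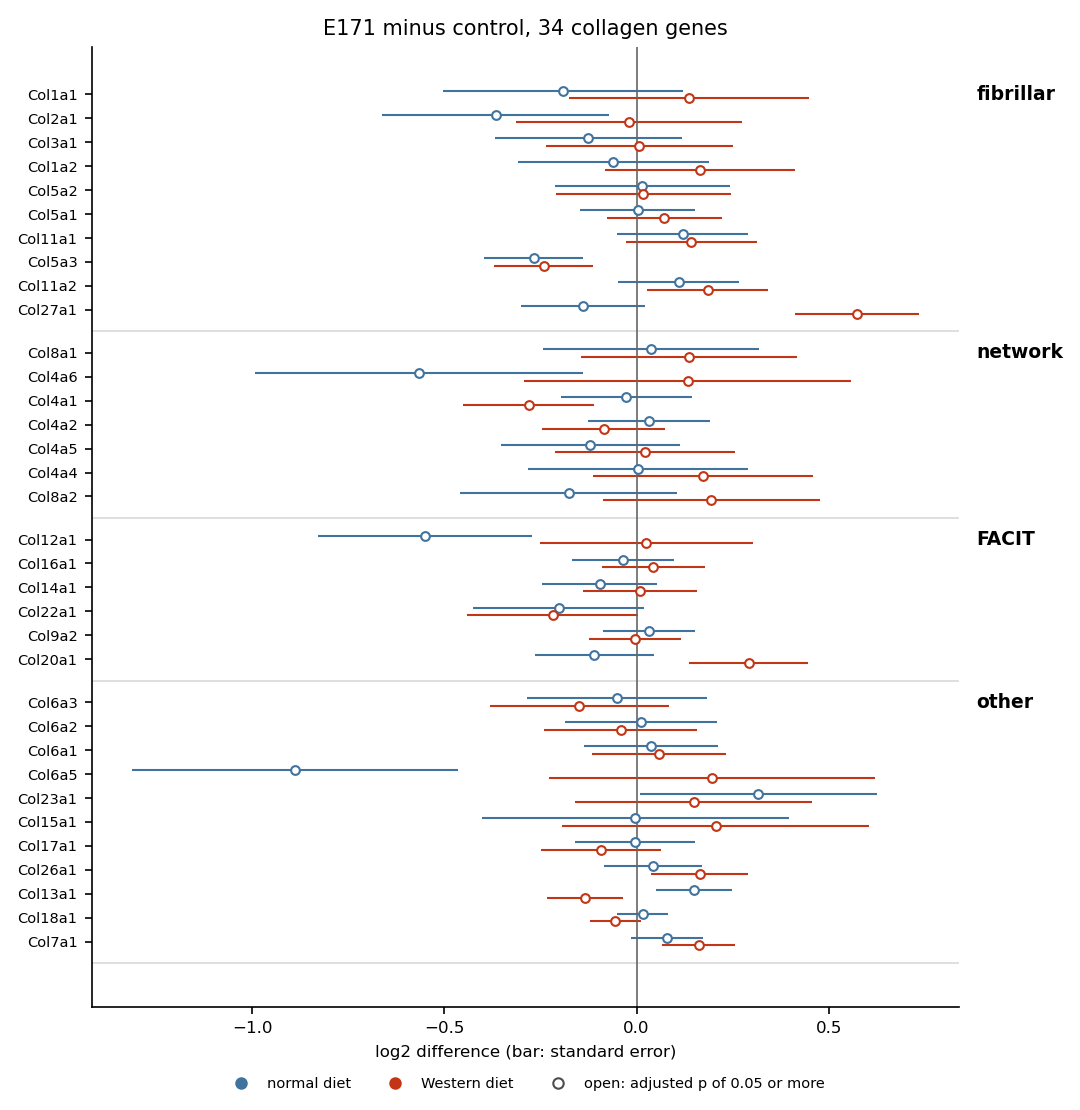
Difference between E171 and control mice (horizontal axis, log2, with its standard error as a bar) of the 34 tested collagen genes by class, on the normal and on the Western diet (8 against 8 mice each). All points are open, since none passed; on the Western diet Col27a1 stands furthest to the right, at 0.57.

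Several collagen genes had more than 1 tested probe, which is a check within the array. Of 12 such genes, 8 had the same call on all probes and 4 had calls that differed in each diet comparison, and none had opposite calls. Col1a1, with 3 probes, gave 3.0 to 3.13 in control and 3.33 to 3.43 in E171 mice. The 10 spots of each of a pair of its probes differed by a median coefficient of variation of 4.87% and 4.83%. The 3 probes of Col3a1 gave 1.05 to 2.24 in control mice, those of Col1a2 1.44 to 2.16, those of Col6a2 0.77 to 1.37 and those of Col6a3 0.69 to 1.68, all of them higher. In each of these 4 genes the brightest probe, which stands for the gene, gave the largest difference and lay furthest along the direction of transcription. The probe of Col6a3 with the glycine repeat gave 1.06 in control and 1.16 in E171 mice. Calls differed between probes for Col11a2, Col13a1 and Col27a1 in both comparisons, for Col4a5 in control mice (0.41 and 0.79) and for Col12a1 in E171 mice (0.31 and 2.42). For Col11a2 the probe that does not stand for the gene was lower, at -0.56 in control and -0.49 in E171 mice.

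Pairs of chains that belong to one molecule or fibril were compared from mouse to mouse. Pearson's r and Spearman's rho were computed for 5 pairs within each of the 4 groups, 20 relations in all, with exact permutation tests and Benjamini-Hochberg adjustment over the 20. By Pearson 18 passed. Col1a1 and Col3a1 had r = 0.997 (rho = 1.0) in normal-diet controls, 0.973 (0.905) in normal-diet E171 mice, 0.997 (1.0) in Western-diet controls and 0.964 (0.929) in Western-diet E171 mice, with exact adjusted p of at most 0.00298 by Pearson. Without the 2 mice furthest from the median of Col1a1, r was 0.995, 0.741, 0.996 and 0.921. Col1a1 and Col1a2 ran from r = 0.929 to 0.997, Col4a1 and Col4a2 from 0.896 to 0.983, and Col6a1 and Col6a2 from 0.920 to 0.973. Without the 2 mice furthest from the median of the first chain, r in normal-diet E171 mice was 0.707, 0.703 and 0.675 for these 3 pairs, and in the other groups it was 0.847 to 0.994. Col5a1 and Col5a2 did not pass in normal-diet controls (r = 0.272, exact adjusted p = 0.508) or normal-diet E171 mice (r = 0.461, exact adjusted p = 0.262). On the Western diet they reached r = 0.739 (rho = 0.643, exact adjusted p = 0.0405 and 0.107) in controls and r = 0.877 (rho = 0.857, exact adjusted p = 0.00665 and 0.0153) in E171 mice. Without 2 mice their r was -0.531, 0.952, 0.880 and 0.751 in normal-diet control and E171 and Western-diet control and E171 mice. Both values of a pair come from the same array and share its scaling, and each slide holds 2 mice of a group, too few for a value within a slide. Chains that share no molecule or fibril were not compared in this way. Many of the higher collagen genes had the same mice at the ends of their group, as given below. The correlations are therefore not shown to be particular to partner chains.

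**Figure D5:**
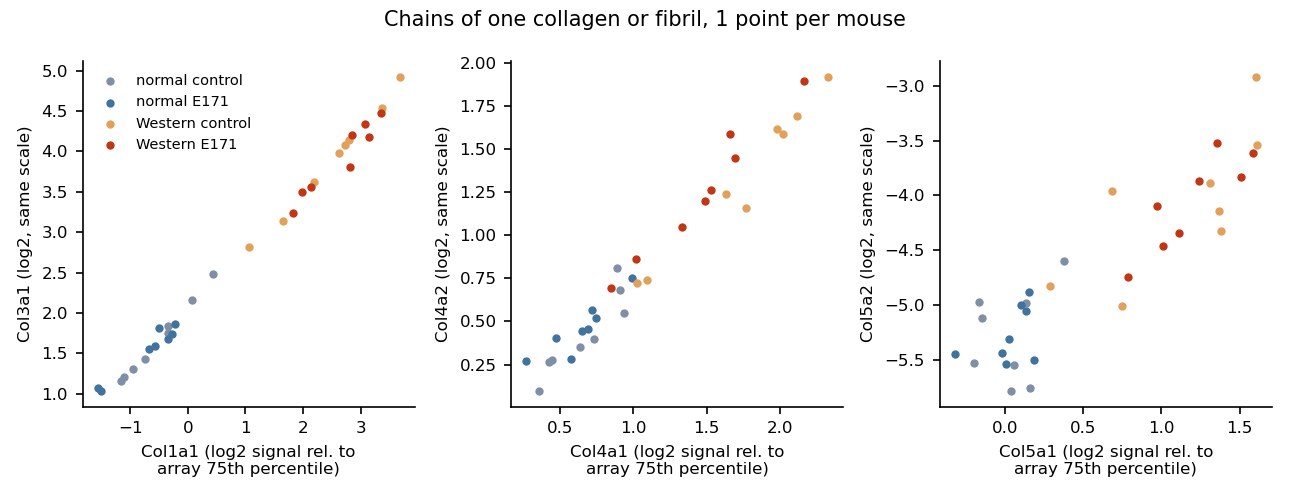
Signal of 3 pairs of collagen chains against each other (both axes log2 relative to the 75th percentile of the array), 1 point per mouse and 1 colour per group. Within groups r is 0.964 to 0.997 for Col1a1 and Col3a1, 0.896 to 0.983 for Col4a1 and Col4a2, and 0.272 to 0.877 for Col5a1 and Col5a2.

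Some mice stood at the same end of their group in many genes. Among the 17 genes that were higher in both diet comparisons, mouse 3 of the Western-diet controls had the highest value of its group in 14, and mouse 5 the lowest in 11. In the Western-diet E171 group mouse 3 was the highest in 11, and mice 1 and 6 the lowest in 8 and 7. In normal-diet controls mouse 5 was the lowest in 12, and in normal-diet E171 mice mouse 6 was the lowest in 9. Mouse 5 of both control groups (308 normal diet, 331 Western) and mouse 6 of normal-diet E171 mice (249) had their group's lowest 75th percentile. Both mice 3 of the Western diet, on slide 3, had their group's most probes well above background (37071 in control, 37261 in E171). In Western-diet E171 mice the lowest percentile was that of mouse 7 (302), not of mice 1 or 6. The part of array brightness was not tested. Replicate numbers are those of the labels, which state no tie between mice across groups.

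Genes that fold, cut and link collagen were mostly higher on the Western diet too. Counts are over the genes tested, in control mice with E171 mice in brackets, against a background of 18.7% (21.9%) higher and 28.5% (32%) lower over all genes. With normexp background correction the medians were smaller: 0.25 (0.24) for folding, 0.51 (0.56) for proteoglycans and glycoproteins and 0.43 (0.49) for receptors, and 0.40 to 0.81 (0.51 to 0.79) for the other 4 lists. In the list of collagen folding and modification 11 of 18 (10) were higher and 4 (4) lower, with a median of 0.50 (0.46). Its largest changes were in Fkbp10, a prolyl isomerase that helps fold procollagen (1.39, SE 0.19, adjusted p = 7.18e-07), Plod2, a lysyl hydroxylase of the ends of the chain (1.32, SE 0.25, adjusted p = 6.51e-05), and Creb3l1, a transcription factor of collagen secretion (1.01, SE 0.10, adjusted p = 5.77e-09). The lower ones were Ppib (-0.58) and P3h1 (-0.55), which act in a shared prolyl 3-hydroxylation complex, and Fkbp14 (-0.25) and Mia3 (-0.21). Of the propeptide processing and crosslinking list 9 of 13 (9) were higher and 2 (2) lower, with a median of 0.83 (0.87). The lysyl oxidases Lox (2.58, SE 0.25, adjusted p = 1.64e-09), Loxl2 (1.71, SE 0.21, adjusted p = 8e-08) and Loxl1 (1.51, SE 0.24, adjusted p = 6.72e-06) led it. Lower were Bmp1, the protease that cuts the C-propeptide (-0.72), and Loxl4 (-0.74).

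Among proteoglycans and glycoproteins that bind fibrils 10 of 13 (11) were higher and 1 (1) lower, with a median of 0.89 (0.97). Thbs1 and Thbs2, the thrombospondins, were higher, Thbs1 at 1.89 (SE 0.25, adjusted p = 3.29e-07), and Thbs2 at 1.56 (SE 0.20, adjusted p = 2.98e-07). Tnc, tenascin C, was at least 1.96-fold higher (adjusted p = 0.000192), a lower bound because its probe was not well above background on any normal-diet control array. Fibronectin, Fn1, was the 1 lower member (-0.62). The basement membrane partners had 8 of 11 (9) higher and 0 lower, with a median of 0.50 (0.66), led by nidogen, Nid1 (1.496, SE 0.23, adjusted p = 4.24e-06), and the laminin chains Lama2 (1.26, SE 0.21, adjusted p = 1.61e-05) and Lamc1 (0.87, SE 0.12, adjusted p = 5.49e-07). Collagen receptors were higher in 6 of 8 cases (6) and lower in 0 (1), with a median of 0.80 (1.0). The largest were Mrc2, an endocytic receptor (1.57, SE 0.21, adjusted p = 4.78e-07), Lair1, an inhibitory receptor of leukocytes (1.47, SE 0.22, adjusted p = 2.94e-06), and Ddr1, a collagen-binding kinase (1.37, SE 0.29, adjusted p = 0.000275).

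The collagen degradation list had 8 of 9 (7) higher and 0 lower, with a median of 1.11 (0.88). It counts TIMPs, which inhibit collagen-cutting proteases, beside the proteases themselves, so the count is not one of degrading genes alone. Mmp13, the main interstitial collagenase of rodents, rose by 4.02 (SE 0.39, adjusted p = 2.11e-09), with its probe well above background on 2 of 8 normal-diet control arrays, and Mmp2, a gelatinase, by 1.48 (SE 0.25, adjusted p = 1.47e-05). Mrc2 belongs to this list too. Signals to matrix cells, TGF-beta, PDGF and their receptors, were higher in 11 of 17 cases (12) and lower in 0 (1), with a median of 0.81 (0.76). Among the higher ones were the ligands Pdgfb (1.25, SE 0.15, adjusted p = 6.65e-08) and Tgfb2 (1.17, SE 0.22, adjusted p = 7.05e-05). Not tested, as too dim, were P4ha3, Colgalt2, Adamts3, Tll2, Comp, Aspn, Itga2, Gp6, Mmp1a and Mmp9. Of all genes of these 7 lists, 1 was called for E171, P4ha1, a catalytic subunit of collagen prolyl 4-hydroxylase and 1 of 18 tested folding genes. The background over all genes was 0.385% called on the Western diet and 0.364% averaged over both diets. A lone call is therefore not read as a result about the lists. P4ha1 was lower in E171 mice on the Western diet (-0.74, adjusted p = 0.00747 in limma) and averaged over both diets (-0.53, adjusted p = 0.00755). Its adjusted p on the Western diet was 0.00616 to 0.0154 under other scalings.

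Beyond the mesenchymal cells, marker counts are again read against 18.7% (21.9%) higher and 28.5% (32%) lower over all genes, with E171 mice in brackets. The cholangiocyte list had 4 of 7 (5) higher and 1 (0) lower, with sums of 5.42 to 12.0, 5.58 to 10.6, 8.90 to 46.0 and 11.0 to 53.9 in the same order of groups. Macrophage markers were higher in 4 of 7 cases (4) and lower in 0 (0) (sums of 28.5 to 99.6, 39.4 to 76.3, 55.4 to 148 and 73.4 to 166), and those of lipid-associated macrophages in 5 of 6 (5) and lower in 0 (0) (sums of 7.43 to 12.1, 7.39 to 12.2, 10.2 to 40.5 and 12.95 to 28.01). Of the latter, Gpnmb was not well above background on any normal-diet array and passed the filter only through the Western-diet groups, where it is high. Mmp12 was not well above background on any array of normal-diet E171 mice. Both are in these counts and sums. Endothelial markers were higher in 3 of 9 cases (3) and lower in 2 (2) (sums of 46.3 to 57.0, 51.8 to 57.8, 40.0 to 56.8 and 42.0 to 53.5), and smooth muscle markers were higher in 1 of 4 (1) and lower in 0 (0) (sums of 1.56 to 2.64, 1.499 to 2.05, 1.60 to 2.41 and 1.74 to 2.24).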

How the data were processed

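Liver RNA of 32 mice was measured on one-colour Agilent arrays, 1 array per mouse. The deposited scanner tables hold linear intensity values, the background-subtracted processed signal of Agilent Feature Extraction 10.10.1.1, per the file headers, which give mm9 positions. A value table deposited by the authors holds log2 values of the same arrays, and limma is named in the submitters' processing notes. Here log2 of the processed signal was taken, the array's 75th percentile over non-control spots was subtracted, spots marked as outliers were left out, and spots of a probe were averaged. A probe was kept if well above background on at least 6 of 8 arrays of 1 group, and the brightest kept probe stood for its gene. Probes were named through RefSeq accessions (32994), symbols (10224), synonyms (520) or the array's own name (2574), and 10293 had no name. The members were selected by the name in the files. Group means were fitted with limma 3.58.1 (R 4.3.3), with 6 contrasts and adjustment over all genes; probes were adjusted over all kept probes. For a gene not well above background on any array of a group, the fold is a lower bound against the lowest signal well above background on each array. The scripts were tested on simulated data. Correlations used SciPy 1.17.1. The number of arrays limits the precision.

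Group values were given for collagen genes with an adjusted p under 0.05 and a log2 difference of at least 1 in either diet comparison; from each pathway list the 3 largest changes in control mice were named, except for 1 gene that is not reported here. Lower list members, P4ha1, Col18a1, Col7a1 and Col13a1 were singled out after their values were seen. The members and lists were chosen with earlier results of these data known. Alternatives were normexp background correction (offset 50), quantile normalization, the deposited table, other filters, the mean of probes, slide and replicate terms, and leaving out slides or mice. Replicate numbers were not taken as pairs in the main fit, since the labels state none. Deviations of same-numbered mice correlated at a mean of 0.07 over 48 pairs (-0.298 to 0.571), those of other numbers at -0.0088 over 336. This difference was not tested, so a weak shared factor is not excluded.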

Additional observations from a re-analysis of the deposited data

Results flagged for a closer look

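In 64 sets of 8 mice, those of the named genes in each group, the lowest or highest mouse was set against its neighbour by Dixon's criterion, which flags about 1 in 20 sets by chance. It flagged 3. Col12a1 in Western-diet E171 mice had a lowest value of -3.34, with the next mouse at -2.80. Col2a1 in normal-diet E171 mice had a lowest value of -6.14, with the next at -4.86. Col5a1 in the same group had a lowest value of -0.32, with the next at -0.016. The cause was not tested.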

How the results depend on the processing

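Over the alternatives, 1453 of 1492 values for single collagen genes in control mice and 1456 of 1492 in E171 mice kept their direction and their side of the threshold. Of the 44 alternatives, 32 left out a single mouse. Where that mouse was in neither group of the comparison the difference could not move, so part of this agreement was fixed in advance. Lost or gained calls numbered 23 and 15 in control mice and 28 and 8 in E171 mice. With normexp background correction 9 chains were lower in control mice in place of 5, and Col23a1 turned to -0.10. The count of genes called for E171 on the Western diet ran from 0 to 1 when single mice were left out. Probes of 1 gene differed in call for 7 genes with normexp and for 11 of 30 with no filter, against 4. Of the 20 chain correlations, 15 passed with normexp, 18 with quantile normalization and 17 with the deposited table. With the replicate number as a block 18 genes were higher and 6 lower in control mice, 19 and 5 in E171 mice, and 0 were called in the 4 comparisons of E171. The labels do not say that these numbers pair mice. Among the genes that lost a call, Col23a1, Col4a4, Col4a6, Col5a2 and Col6a5 were not well above background on every array, which limits the precision of their values. With the mean of probes the diet call of Col27a1 in E171 mice was lost (-0.13, adjusted p = 0.662), and without slide 3 that of Col4a5 in control mice (0.49, adjusted p = 0.0694). Calls that held but moved by over 1.5 times in control and E171 mice were those of Col20a1 (-0.93 and -0.72) and Col6a2 (0.90 and 0.87) with normexp, of Col18a1 with quantile normalization (-0.29 and -0.37) and the deposited table (-0.31 and -0.37), and, with the mean of probes, of Col27a1 in control mice (-0.71) and of Col12a1 (1.36) and Col13a1 (-0.41) in E171 mice. With the deposited table Col5a2 was 0.61 and 0.58 (in control mice also 0.80 without slide 3), Col2a1 1.70 in E171 mice and Col4a6 0.67 in control mice. The cause was not tested.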
